A study of Rattus norvegicus with 12 samples.

Results

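Txnip and Arrdc1 to Arrdc4 are alpha-arrestin genes of the rat, and their mRNA levels were followed here through 12 RNA-Seq libraries of smooth muscle cells. The members are the 5 rows named Txnip, Arrdc1, Arrdc2, Arrdc3 and Arrdc4 of the 33294 genes in the count table. They were selected on the fall of Arrdc4 after MBNL knockdown, a value of these same libraries, and the other 4 came with it as its family. The level of any member in the MBNL knockdown against its control is therefore given as a description with no test. The D1 libraries that took part in that selection are also the control of the other comparisons. All 5 passed the filter on low counts in every comparison.

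The 12 libraries come from PAC1, a line of rat pulmonary artery smooth muscle cells that can be held in a more differentiated state (PAC1-D, split once a week) or a more proliferative state (PAC1-P, split more often and more thinly). There were 4 groups of 3 libraries. D1 was PAC1-D with a control siRNA, P was PAC1-P with the same control siRNA, RBPMS KD1 was PAC1-D with an siRNA to Rbpms, and MBNL KD was PAC1-D with siRNAs to Mbnl1 and Mbnl2. All cells received 90 pmol of siRNA with a lipid reagent, a repeat treatment after 24 h and harvest 48 h later, per the labels, in DMEM + Glutamax with 10% serum. The glucose content of the medium is not given in the sources used here. Each state is 1 cell line under 1 culture regime, and P and D1 differ in culture history rather than in a single perturbation. The siRNA sense strands listed for the control and for MBNL KD are shown because that comparison selected the members, with no capitals since no part is singled out.
C2 control: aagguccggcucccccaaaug
MBNL1 THH2: cacggaauguaaauuugcauu
MBNL2: gaagaguaauugccugcuuuu

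Alpha-arrestins share the arrestin fold with the visual and beta-arrestins and carry proline-rich motifs that bind ubiquitin ligases of the NEDD4 family, so that they can link a membrane protein to its ubiquitylation and sorting. Txnip binds thioredoxin and promotes the internalisation of glucose transporters. Txnip and Arrdc4 are known targets of the glucose-responsive factor MondoA, encoded by Mlxip, which acts with its partner Mlx.

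Total counts per library lay between 80842635 and 90771289, so that the level of 3 counts taken as the limit of detection was between 0.0331 and 0.0371 CPM, the number of counts scaled to a common library total. Levels below are CPM adjusted with TMM factors, and gene lengths were not used, so levels are compared between libraries and not between genes. The siRNAs left Rbpms at 25.0% of its D1 mean in RBPMS KD1, and Mbnl1 and Mbnl2 at 23.8% and 29.6% in MBNL KD. Of 8 smooth muscle markers, 8 were called lower in P, 4 in RBPMS KD1 and 0 in MBNL KD. Over all genes, 27.6%, 4.68% and 10.2% were called in either direction. In RBPMS KD1, Acta2 (-1.11) and Myl9 (-1.13) lay near the log2 fold change of 1 that a call needs. The summed level of the 8 markers lay between 9804 and 10305 CPM in D1. Markers of endothelial cells were near 0 in D1 (Cdh5 and Kdr at 0, 4 markers together at most 0.333 CPM), and those of macrophages and leukocytes reached at most 1.49 CPM together in any library. In bulk RNA, fewer cells of a type and less RNA per cell cannot be told apart.

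The promoter windows of the members were read from RefSeq (rat assembly GRCr8), from 250 bases before to 50 bases after the start, and 4 of the 5 genes matched, all but Txnip. The windows of Arrdc4 and Arrdc3 are shown because these 2 members differed most between P and RBPMS KD1. The Arrdc4 window is chr1:131793376-131793675 on the minus strand, and the Arrdc3 window is chr2:12872952-12873251 on the plus strand. Capitals mark CCAAT, the motif of NF-Y, or its reverse ATTGG, and CACGTG, an E-box.
Arrdc4: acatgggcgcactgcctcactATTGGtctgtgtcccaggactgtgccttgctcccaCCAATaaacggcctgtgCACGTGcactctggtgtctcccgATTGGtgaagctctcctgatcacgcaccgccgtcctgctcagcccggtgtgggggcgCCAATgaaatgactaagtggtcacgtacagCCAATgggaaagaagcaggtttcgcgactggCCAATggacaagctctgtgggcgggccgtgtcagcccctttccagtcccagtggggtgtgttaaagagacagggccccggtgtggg
Arrdc3: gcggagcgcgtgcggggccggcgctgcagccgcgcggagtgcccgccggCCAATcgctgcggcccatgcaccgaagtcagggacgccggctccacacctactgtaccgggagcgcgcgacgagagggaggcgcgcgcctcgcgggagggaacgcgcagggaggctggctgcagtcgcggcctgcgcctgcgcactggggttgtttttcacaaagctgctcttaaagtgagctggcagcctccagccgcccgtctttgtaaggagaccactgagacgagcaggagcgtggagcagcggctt

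The Arrdc4 window held 6 copies of CCAAT on either strand, at 229, 194, 154, 97, 67 and 36 bases before the start, and 1 CACGTG at 177 bases before it. Over all 33469 windows, 37.5% held a CCAAT, 3.02% held 3 or more, and 14 windows, or 0.0418%, held 6 or more. CACGTG, which reads the same on both strands, was in 6.42% of windows. The Arrdc2 window held 2 copies of CCAAT, the Arrdc3 window 1 and the Arrdc1 window 0. CACGNG on either strand, the wider form that includes every CACGTG, occurred once each in Arrdc4 and Arrdc3 and in 26.1% of all windows. A pair of CACGNG with 5 bases between, the layout of the carbohydrate response element through which MondoA acts, was found in 24 of all windows (0.0717%) and in 0 of the 4 member windows. The searches for CACGTG and CCAAT were chosen after the sequences had been seen. A match is a description of letters, not a binding site, and its absence says only that these letters are not in the window.

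Txnip, the thioredoxin-binding member, stood at 208, 216 and 211 CPM in the 3 D1 libraries, at 192, 179.9 and 178 CPM in P, and at 188, 204 and 195 CPM in RBPMS KD1. In MBNL KD it stood at 55.9, 54.2 and 54.7 CPM. D1 was highest and apart from every other group, P and RBPMS KD1 overlapped, and MBNL KD lay far below the rest. Over all genes tested, every library lay below every D1 library for 37.8% in P, 31.9% in RBPMS KD1 and 35.2% in MBNL KD. The mean in P was 183 ± 7.78 CPM against 212 ± 3.85 CPM in D1 (SD, n = 3 each), a log2 fold change of -0.21 (SE 0.0275, adjusted p = 2.5e-08 with edgeR). Under quantile normalization this was -0.13 (adjusted p = 0.00033). In RBPMS KD1 the log2 fold change was -0.11 (SE 0.0283, adjusted p = 0.0011), a difference that missed the threshold in the deposited normalised values (-0.074, adjusted p = 0.063 with limma). In MBNL KD the mean was 54.9 ± 0.872 CPM, 26.0% of D1, or 3.85-fold lower, and 63 of the 16053 genes tested there had a lower log2 fold change.

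Arrdc4, a close relative of Txnip that also acts on glucose transporters, stood at 10.2, 10.3 and 9.73 CPM in D1, at 4.35, 3.79 and 3.89 CPM in P, and at 10.1, 9.98 and 8.89 CPM in RBPMS KD1. In MBNL KD, where its selection was made, it stood at 0.964, 1.37 and 1.21 CPM, from 86, 123 and 98 reads. D1 and RBPMS KD1 overlapped, P lay below both, and MBNL KD lay below P. In P the mean was 4.01 ± 0.296 CPM, 39.8% of D1, a 2.52-fold fall (log2 fold change -1.33, SE 0.0761, adjusted p = 4.8e-17 with edgeR). RBPMS KD1 did not pass the test (log2 fold change -0.061, 95% interval -0.19 to 0.072, adjusted p = 0.44), so a change beyond that interval was not seen but equality is not shown. In MBNL KD the level was 1.18 ± 0.205 CPM, 11.7% of D1, or 8.52-fold lower, with 9 of the 16053 tested genes lower still. That rank follows from the selection of Arrdc4 on this value and is a description.

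Arrdc3, which acts on receptors such as the beta2-adrenergic receptor and on integrin beta4, stood at 121, 123 and 121 CPM in D1, at 72.3, 70.5 and 71.7 CPM in P, and at 156, 159 and 163 CPM in RBPMS KD1. In MBNL KD it stood at 83.4, 79.1 and 79.4 CPM. No groups overlapped, and RBPMS KD1 was above D1 while P and MBNL KD were below it. Every library lay above every D1 library for 31.5% of all genes tested in RBPMS KD1, and below for 37.8% in P. In P the log2 fold change was -0.77 (SE 0.0271, adjusted p = 6.1e-23 with edgeR), and in RBPMS KD1 it was 0.39 (SE 0.0264, adjusted p = 2.5e-13). MBNL KD was at 66.3% of D1. Arrdc3 was the only member whose lowest group was P rather than MBNL KD.

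Arrdc1, known for recruiting Tsg101 to bud vesicles from the cell surface, stood at 23.3, 23.3 and 22.8 CPM in D1, at 31.2, 31.1 and 32.9 CPM in P, and at 28.3, 27.5 and 29.0 CPM in RBPMS KD1. In MBNL KD it stood at 15.4, 14.0 and 14.4 CPM. The groups did not overlap, and Arrdc1 was the member that stood above D1 in both P and RBPMS KD1. Every library lay above every D1 library for 41.3% of all genes tested in P and 31.5% in RBPMS KD1. The log2 fold change was 0.45 in P (SE 0.041, adjusted p = 8.3e-12 with edgeR) and 0.29 in RBPMS KD1 (SE 0.042, adjusted p = 8.1e-07). MBNL KD was at 63.1% of D1. In the RefSeq gene table, Arrdc1 overlaps LOC134486057 and Arrdc3 overlaps LOC120100652. The strand setting of the counting is not stated, and whether its annotation held these neighbours was not checked here. Whether their reads altered the counts of Arrdc1 and Arrdc3 cannot be told.

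Arrdc2 stood at 13.2, 13.8 and 13.0 CPM in D1, at 9.18, 7.79 and 7.04 CPM in P, and at 8.56, 8.05 and 7.97 CPM in RBPMS KD1. In MBNL KD it stood at 7.41, 7.16 and 6.72 CPM. D1 alone stood apart, since P overlapped both RBPMS KD1 and MBNL KD. The P libraries spread more than those of any other group for this gene (8.01 ± 1.08 CPM, a coefficient of variation of 13.5%). The log2 fold change was -0.74 in P (SE 0.0715, adjusted p = 3.8e-11 with edgeR) and -0.70 in RBPMS KD1 (SE 0.061, adjusted p = 6.8e-11), and MBNL KD was at 53.3% of D1.

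**Figure D1:**
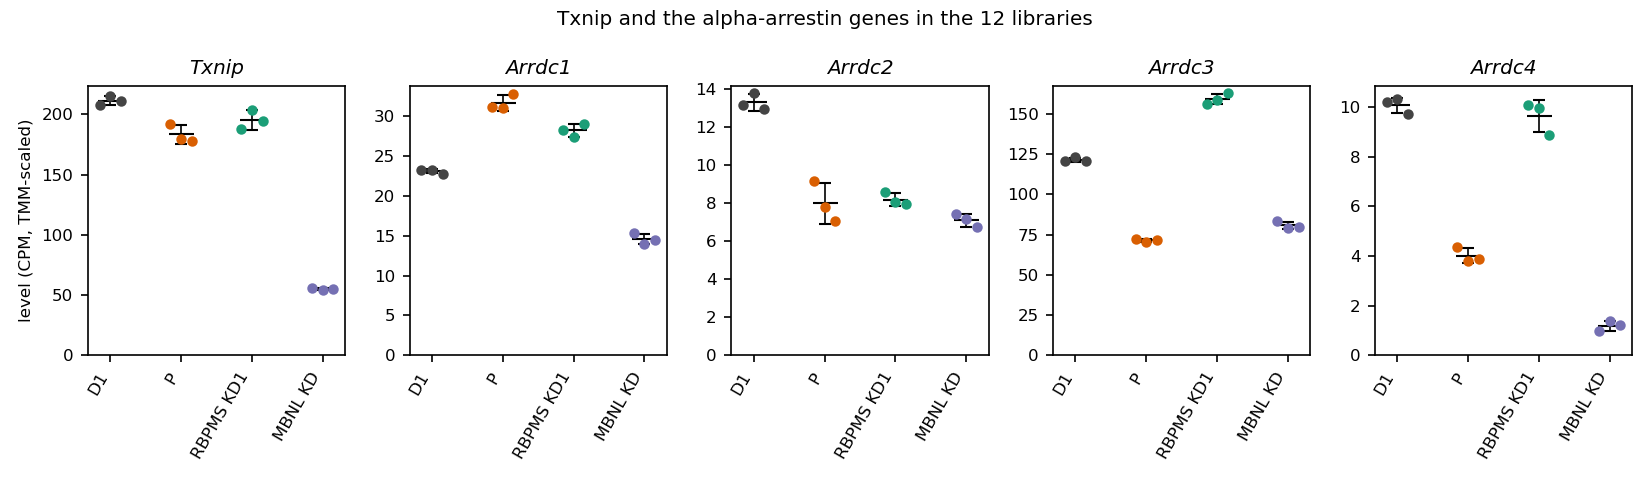
Levels of the 5 genes in the 12 libraries, in TMM-scaled CPM on a linear axis from 0 for each gene, with 1 point per library and bars for the mean ± SD of 3 libraries. Txnip and Arrdc4 have their lowest points in MBNL KD (means 54.9 and 1.18 CPM), Arrdc3 has its lowest in P (71.5 CPM), and Arrdc1 has its highest in P (31.7 CPM).

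In P against D1, 5 of 5 members differed at an adjusted p under 0.05, 4 lower and 1 higher, where 77.9% of the 16814 genes tested did so. At a log2 fold change beyond 1 as well, the rule for a called gene, 1 of 5 was called, Arrdc4, where 27.6% of genes were. Both shares say little about the family, since so large a part of the transcriptome differed between these states. The median log2 fold change of the members was -0.74, beside 0.020 over all genes tested. In the same libraries the 8 smooth muscle markers had a median log2 fold change of -5.10 with a summed level of 211 to 224 CPM in P, and 4 of 5 proliferation markers (Mki67, Top2a, Ccnb1, Mcm2 and Pcna) were higher by adjusted p, with 0 called. The endothelial markers together reached between 4.53 and 5.55 CPM in P, where Cdh5 had 122 to 138 reads per library against 0 in the other groups. The part of any of these in the members' levels was not tested.

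In RBPMS KD1 against D1, 4 of 5 members differed at an adjusted p under 0.05, 2 higher and 2 lower, where 59.1% of the 15904 genes tested did so. None of the 5 was called, 0 against 4.68% of genes, with 0 also called by DESeq2. The members' median log2 fold change was -0.061, beside 0.0043 over all genes. The summed smooth muscle markers lay between 4886 and 5060 CPM, below D1, and 4 of 5 proliferation markers were lower by adjusted p. The endothelial marker Tek was called higher (1.32, adjusted p = 0.00022 with edgeR) at 0.673 CPM, with Cdh5 and Kdr at 0 and the 4 markers together at 0.752 to 0.795 CPM. Their part was not tested.

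In MBNL KD against D1, 67.5% of all genes tested differed at an adjusted p under 0.05. All 3 libraries lay below all 3 D1 libraries for 5 of 5 members, a description in which the place of Arrdc4 was fixed by its selection. The share over all genes tested was 35.2%, given as background only. The called share of all genes was 10.2%, which is printed as background only, since this comparison selected the members. The median log2 fold change was -0.90 over the members, beside 0.0099 over all genes. The members together took between 0.0156 and 0.0162% of all counts, against 0.0362 to 0.0369% in D1. Arrdc4 is part of both values, which are descriptions. The log2 fold changes, as descriptions, were -3.09 for Arrdc4 (SE 0.103), which was selected on this value, -1.94 for Txnip (SE 0.0244), -0.90 for Arrdc2 (SE 0.0636), -0.66 for Arrdc1 (SE 0.0491) and -0.59 for Arrdc3 (SE 0.0258). The smooth muscle markers went both ways, with 2 of 8 higher and 6 lower by adjusted p (Myh11 at 0.54, adjusted p = 1.3e-13 with edgeR), and their summed level lay between 7829 and 7945 CPM. The macrophage marker Csf1r was called higher (1.30, adjusted p = 0.00024) at 0.655 CPM, with Ptprc and Adgre1 at 0 and the 4 markers together at 1.35 to 1.49 CPM, against 0.872 to 1.10 CPM in D1. All 5 proliferation markers were lower by adjusted p, beside the 67.5% of all genes that differed, and 1 was called (Ccnb1, log2 fold change -1.02), with a summed level of 491 to 496 CPM against 743 to 761 CPM in D1. The part of these in the members' levels was not tested.

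**Figure D2:**
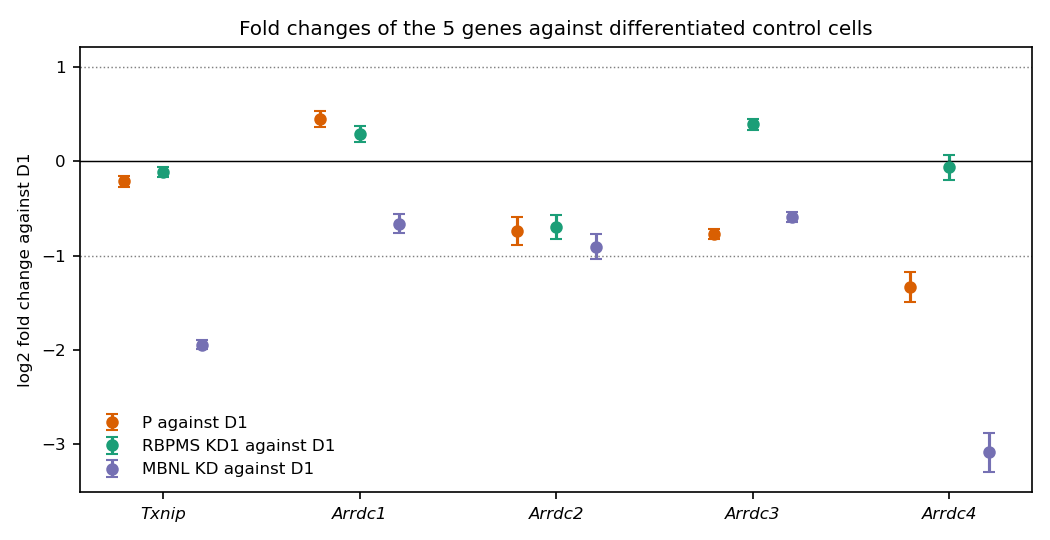
Log2 fold changes of each gene against D1 (vertical axis) in the 3 comparisons, with bars for the 95% interval of the fit and dotted lines at a log2 fold change of 1 in each direction. The points for MBNL KD are descriptions, since Arrdc4 was selected there. Arrdc4 is near 0 in RBPMS KD1 (-0.061), at -1.33 in P and at -3.09 in MBNL KD, and Arrdc3 lies at 0.39 in RBPMS KD1 but at -0.77 in P.

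P and RBPMS KD1 both have low Rbpms, at 6.32% and 25.0% of D1, and were compared directly, in a comparison added after the data had been seen. There 4 of 5 members differed by adjusted p, where 79.4% of 16899 genes did, and 2 of 5 were called, where 29.1% of genes were. The called members were Arrdc3 (log2 fold change of P over RBPMS KD1 -1.18, SE 0.0287, adjusted p = 3.9e-28 with edgeR) and Arrdc4 (-1.30, SE 0.0796, adjusted p = 1.9e-16). Arrdc2 did not pass the test (-0.063, 95% interval -0.22 to 0.097, adjusted p = 0.47), and without P replicate 3 its value was 0.022. Arrdc1 was higher in P by 0.14 (SE 0.0416, adjusted p = 0.0033). Txnip was lower by adjusted p (-0.12, SE 0.0309, adjusted p = 0.00065) but its libraries overlapped, and under quantile normalization it missed the threshold (-0.058, adjusted p = 0.10).

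The members' patterns over the 12 libraries are described by Pearson's r of log2 CPM, with no p, since the 12 libraries fall into 4 groups that share D1 and their scaling. The 3 MBNL KD libraries, on which the members were selected, are among the 12, so r is given with and without them, the latter added after the data had been seen. Over 12 libraries the highest r was 0.93, between Txnip and Arrdc4, followed by 0.88 between Txnip and Arrdc1. Over the 9 libraries without MBNL KD, r was 0.78 between Txnip and Arrdc4 and turned to -0.92 between Txnip and Arrdc1. The highest r was then 0.92, between Arrdc3 and Arrdc4, and Arrdc1 had a negative r with each of the other 4 members. Among 12646 genes compared, the pattern of Txnip was most like that of Sorbs3, an adaptor of the cytoskeleton and cell adhesions (r = 0.999), then Add1 (0.998) and Ipo7 (0.997), which without MBNL KD were at 0.92, 0.88 and 0.72. Sorbs3 stood at 175 CPM in D1, 159.9 in P, 169 in RBPMS KD1 and 69.3 in MBNL KD, so that most of its range, like that of Txnip, lay in the group that selected the members. Arrdc4 was most like Ano6, a membrane scramblase (0.994), Dop1b (0.993) and Endod1 (0.993). Arrdc3 was most like Frmd8 (0.997), Herpud2 (0.997) and Efs (0.996). Arrdc1 was most like the SNARE gene Stx17 (0.996), the transcription factor Ets1 (0.995) and Tbc1d24 (0.995), and Arrdc2 was most like Rab1b, Capn1 and Klhl11 (each 0.966 to 0.968). For these 4 members the genes named kept r between 0.967 and 0.999 over the 9 libraries.

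The genes around the alpha-arrestins were followed in 8 lists, 87 genes in all. The first were other arrestin-fold genes, the Mondo and Max-network transcription factors, thioredoxins and peroxiredoxins, and hexose uptake. The others were NEDD4-family ligases, ESCRT genes, cargo proteins, and AMPK subunits with regulators and partners of Txnip. MondoA, ChREBP, Mlx and the Max-network factors were listed together. Of these, 2 of 7 tested were called lower in MBNL KD and 0 higher, where 10.2% of all genes were called. By adjusted p alone 5 of 7 were lower, where 67.5% of all genes differed, with a median log2 fold change of -0.19 for the list. Mlxip, which encodes MondoA, stood at 50.1, 49.5 and 50.02 CPM in D1 and at 15.2, 14.8 and 16.7 CPM in MBNL KD. Those libraries were far apart, at 31.2% of the D1 mean (log2 fold change -1.68, SE 0.0426, adjusted p = 2.9e-24 with edgeR). The list was chosen with earlier results of these data known, and a link of Mlxip to the members' levels was not tested. Mxd4, a Max partner and transcriptional repressor, stood at 204, 209 and 198 CPM in D1 and at 74.7, 72.0 and 70.4 CPM in MBNL KD (log2 fold change -1.49, SE 0.0259, adjusted p = 3.6e-28). Mlx, the partner of MondoA, differed by less (-0.19, adjusted p = 6.4e-06), and Mlxipl, which encodes the related ChREBP, had at most 2 reads in any library, so it could not be followed at this depth. Mlxip overlaps LOC120096088 in the RefSeq gene table.

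The values of Mlxip in the other comparisons are named after they were seen. In P, Mlxip stood at 78.9, 82.6 and 82.3 CPM, 163% of D1 (log2 fold change 0.70, adjusted p = 3e-20 with edgeR), while Txnip was at 86.7% and Arrdc4 at 39.8% of D1. In RBPMS KD1, Mlxip stood at 38.1, 36.3 and 36.1 CPM, 73.8% of D1 (log2 fold change -0.44, adjusted p = 1.3e-11), while Txnip was at 92.4%, also lower by adjusted p, and Arrdc4 at 95.8%, which did not pass the test. In both comparisons the libraries of Mlxip did not overlap with those of D1. The P libraries lay above D1, as for 41.3% of all genes tested, and the RBPMS KD1 libraries below, as for 31.9%. The mRNA level says nothing of MondoA protein or of its place in the cell, which were not measured here.

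**Figure D3:**
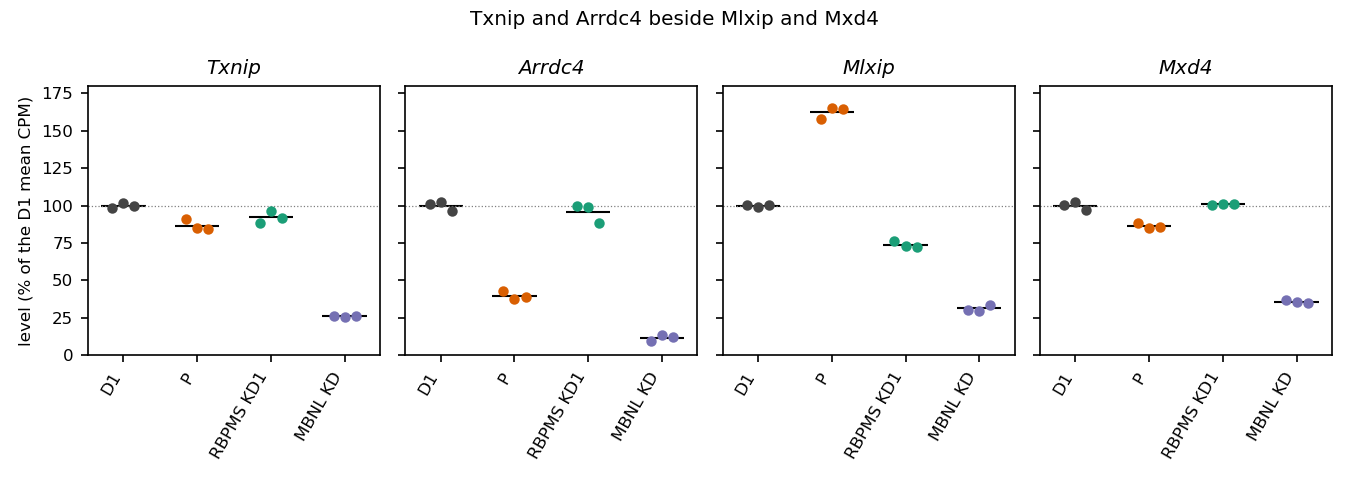
Levels of Txnip, Arrdc4, Mlxip and Mxd4 as percent of each gene's mean in D1 (vertical axis, dotted line at 100), with 1 point per library and a line at the mean of each group. All 4 genes are low in MBNL KD, at 26.0, 11.7, 31.2 and 35.6%, whereas in P Mlxip is at 163% and Arrdc4 at 39.8%.

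Of the remaining lists in MBNL KD, ESCRT genes, which form the vesicle-budding machinery that Arrdc1 recruits, had 2 of 17 called lower and 0 higher, near the share of 10.2% over all genes, with a median of -0.16. The called genes were Vps37c of ESCRT-I (log2 fold change -1.35, SE 0.0431, adjusted p = 8.4e-22 with edgeR) and Chmp4b of ESCRT-III (-1.02, SE 0.0312, adjusted p = 3e-22). Chmp4b lay at the fold threshold and fell short of it under quantile normalization (-0.94) and on the deposited normalised values (-0.93). Among hexose genes 1 of 11 was called higher, the hexokinase Hk3 (1.96, adjusted p = 0.00095), a gene near the limit of detection with 2 to 10 reads in D1 and 16 to 38 in MBNL KD. Hk3 passed the filter on low counts only through MBNL KD, where it is high, so its call is no support for a change of the list. The other arrestin-fold genes had 1 of 8 called higher, the cone arrestin Arr3 (1.24, adjusted p = 0.0023), from 18 to 23 reads in D1 and 35 to 65 in MBNL KD. Arrdc5, a further alpha-arrestin gene, had at most 2 reads in any library. Without MBNL KD replicate 3, Arr3 missed the threshold (0.85, adjusted p = 0.061), and on the deposited normalised values with limma both Arr3 (0.47) and Hk3 (0.54) fell short of the fold threshold. None of the thioredoxin, NEDD4-family, cargo and AMPK lists had a called gene there, 0 of 12, 10, 8 and 11, although by edgeR's adjusted p alone 10 of the 12 thioredoxin genes differed, 5 in each direction, where 67.5% of all genes did. Txn1, the thioredoxin that Txnip binds, named outside the rule, was lower by adjusted p (log2 fold change -0.41, adjusted p = 5e-15). Over all 8 lists, 2 genes were called higher and 4 lower of 84 tested, with a median of -0.015.

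In P, 8 of 82 genes of these lists were called higher and 11 lower, a share below the 27.6% of all genes called there, with a median of -0.18. Of the 10 hexose genes tested, 1 was called higher and 2 lower, near the share of 27.6% over all genes. Slc2a3, which encodes GLUT3, rose by 2.06 on the log2 scale (SE 0.0459, adjusted p = 1.1e-28 with edgeR), whereas Slc2a10 (-2.30, adjusted p = 2.1e-25) and Slc2a12 (-1.39, adjusted p = 2e-23) fell. Slc2a1, which encodes GLUT1, a cargo of Txnip, was lower by adjusted p but was not called (-0.88, adjusted p = 2.5e-22). It is named outside the rule. Of the thioredoxin list, 1 of 12 was called higher, Txnrd3 (2.18, adjusted p = 1.4e-30 with edgeR), and 1 lower, the thioredoxin reductase Txnrd1. Txnrd1, named outside the rule, lay at the fold threshold (-1.002) and fell short of it under 8 alternatives, among them leaving out D1 replicate 3 (-0.99) or P replicate 3 (-0.98) and limma on the deposited normalised values (-0.95).

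In the list of AMPK subunits with regulators and partners of Txnip, 1 of 11 was called higher in P and 3 lower. Over all genes tested, 27.6% were called there. The AMPK subunit Prkag2 rose (2.33, adjusted p = 3.1e-31 with edgeR), whereas the AMPK subunit Prkaa2 fell (-1.20, adjusted p = 3.6e-20). Nlrp3, an inflammasome sensor to which Txnip can bind, fell (-2.54, adjusted p = 2.3e-23), as did Foxo1 (-1.14, adjusted p = 6.1e-25). Prkaa2 and Foxo1 are named outside the rule. Beside the same 27.6% of all genes, 2 of 8 cargo genes were called in each direction. These included the integrin Itgb4, which rose (1.49, adjusted p = 3.6e-11), and the receptors Notch1 (-1.60, adjusted p = 9.4e-25) and Avpr2 (0.0675 CPM in P against 0.272 in D1, adjusted p = 7e-04), which fell. Avpr2 had 11 to 36 reads in D1 and 2 to 9 in P, and it passed the filter only through D1, where it is high, so its call adds no support. Of the ligases, 1 of 10 was called, Hecw2 (-1.40, adjusted p = 3.9e-08), while Nedd4, the ligase with most counts, was not (0.16). ESCRT genes had 2 of 17 called lower, among them Vps37d (-1.34, adjusted p = 6.4e-11). Arrestin-fold genes had 2 of 7 called higher, near the 27.6% of all genes called, among them Arr3 (1.40, adjusted p = 0.00014). The Mondo and Max-network factors had 1 of 7 called higher. On the deposited normalised values with limma, Itgb4 (0.86), Avpr2 (-0.63) and both called arrestin-fold genes, Arr3 (0.43) and the beta-arrestin Arrb2 (0.89, from 1.16 with edgeR), fell short of the fold threshold. So did Arr3 (0.83) and Arrb2 (0.93) under quantile normalization. Arrb2 is named outside the rule.

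In RBPMS KD1, 1 gene of these lists was called higher and 1 lower of 82 tested, where 4.68% of all genes were called, with a median of -0.043. The called genes were Arr3 (1.05, adjusted p = 0.0068 with edgeR) and Slc2a4, which encodes the insulin-responsive GLUT4 (-1.67, adjusted p = 0.00072). Both had few reads, 35 to 45 for Arr3 and 9 to 12 for Slc2a4, against 18 to 23 and 20 to 40 in D1. Slc2a4 passed the filter only through D1, where it is high. On the deposited normalised values with limma both fell short of the fold threshold, at 0.44 for Arr3 and -0.67 for Slc2a4, as did Arr3 under quantile normalization (0.91) and when any of D1 replicates 2 and 3 or RBPMS KD1 replicates 1 and 2 was left out (0.98 to 0.997). The count of 2 was 1 without D1 replicate 3 and 4 without RBPMS KD1 replicate 3. The D1 libraries are shared by all 3 comparisons, so Arr3 was measured against the same low counts each time.

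**Figure D4:**
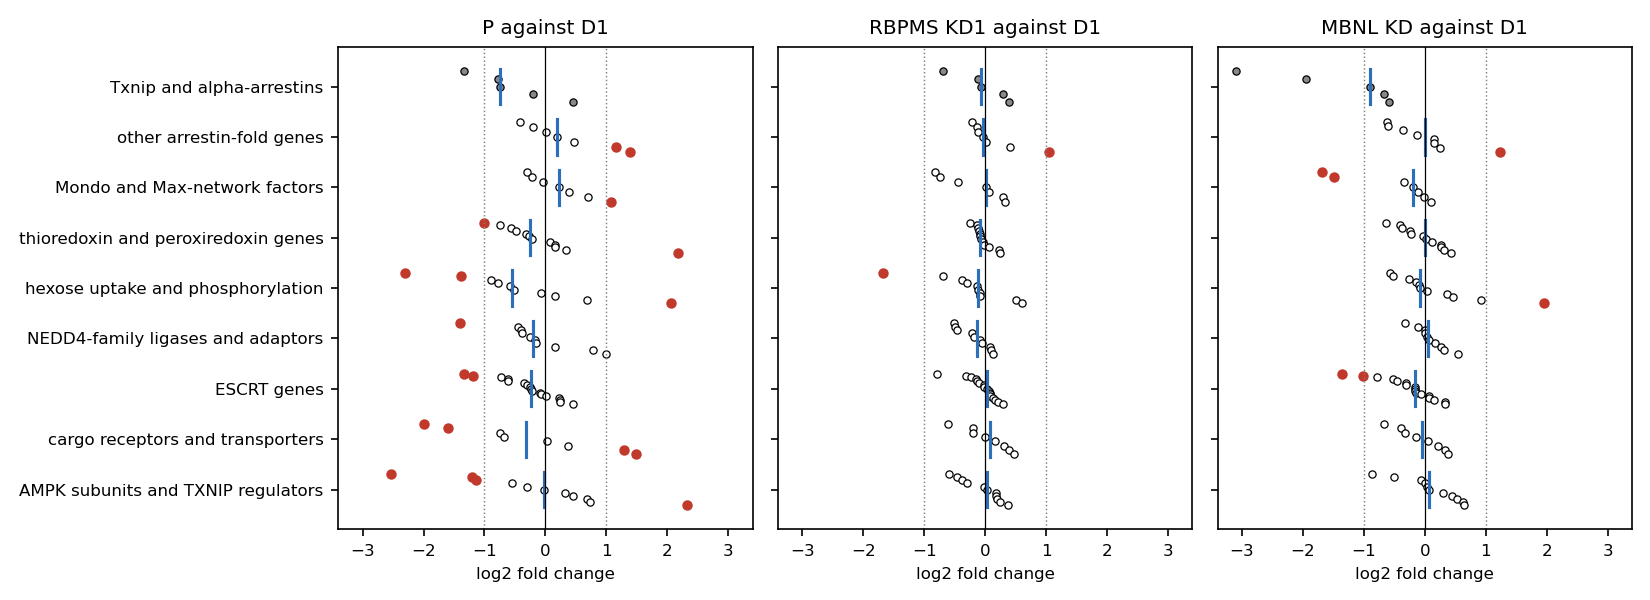
Log2 fold changes (horizontal axis) of the members (grey) and of the tested genes of 8 related lists in the 3 comparisons with D1, with called genes in red, the others in white, and a blue bar at the median of each row. Dotted lines mark a log2 fold change of 1 in each direction. The row of AMPK subunits and TXNIP regulators also holds Nlrp3, which Txnip can bind. The members' row has medians of -0.74, -0.061 and -0.90, and in MBNL KD the red points to the left are Mlxip, Mxd4, Vps37c and Chmp4b.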

How the data were processed

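Poly(A) RNA of 12 PAC1 libraries was sequenced. The authors subsampled reads, aligned with STAR 2.7.11b (rat assembly mRatBN7.2) and assigned reads to genes with featureCounts, and the deposited table holds the raw counts of 33294 genes. A further deposited table, with signal values after the authors' noise correction and quantile normalization, was used only as an alternative. The submitters' notes also name FastQC 0.11.9, MultiQC 1.14, edgeR 3.40.2 and DESeq2 1.38.3. Columns were mapped to samples by the library names in the labels' descriptions. Timing of the siRNA treatments differs between the labels and the methods, and the labels' is given.

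Counts were tested in R 4.3.3 with edgeR 4.0.16 (filterByExpr on the 6 libraries compared, TMM, quasi-likelihood F test, Benjamini-Hochberg adjustment over all genes tested). Genes were called where the adjusted p was under 0.05 and the log2 fold change lay beyond 1 in either direction. The procedure was tested on simulated data. The methods describe biological replicates but the labels do not describe separate cultures, so p-values measure the spread between these samples, which may be technical. Samples with the same replicate number did not deviate together (correlations between -0.0139 and 0.0154), and no block was used. Alternatives used limma 3.58.1, DESeq2 1.42.0, other scalings and filters, no fold threshold and each library left out. Motifs and plots were made with Python 3.11.15, pandas 2.3.3 and matplotlib 3.10.9. A limit of 3 counts covers counting error only. Total counts lay above the read number to which the paper subsampled, and whether both reads of a pair were counted is not stated. In that case 3 counts stand for fewer fragments.

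The members and lists were chosen with earlier results of these data known, and P against RBPMS KD1 was added after the data were seen. The genes named are the members, at most 12 called genes of the related lists per comparison by size of change, the gene with most counts of a list, the 3 genes most like each member (log2 CPM with a prior count of 2, genes with a mean of at least 100 scaled counts) and the siRNA targets, and others are pointed out. Protein sequences were not used here.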

Additional observations from a re-analysis of the deposited data

Results flagged for a closer look

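Arrdc1 and Arrdc3 stood on opposite sides of D1 in different groups, with every library of a group on its side. Such separation from D1 was common over all genes tested. Every library lay higher for 41.3% and lower for 37.8% in P, 31.5% and 31.9% in RBPMS KD1, and 35.1% and 35.2% in MBNL KD. For Arrdc1, the log2 fold change against D1 was 0.29 in RBPMS KD1 and -0.66 in MBNL KD, a difference of 0.95, and 0.45 in P against the same -0.66, a difference of 1.11. For Arrdc3, it was 0.39 in RBPMS KD1 and -0.59 in MBNL KD, a difference of 0.98. These 3 differences involve MBNL KD, on which the members were selected, and were not tested. For Arrdc3, P minus RBPMS KD1 gave -1.16, from -0.77 and 0.39. The direct comparison of those libraries gave -1.18 (adjusted p = 3.9e-28 with edgeR), lower in 3 of 3 P libraries.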

How the results depend on the processing

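For the members in the tested comparisons, 206 of 210 fold changes under alternatives kept their direction and their side of the threshold. The others were Arrdc2 in P against RBPMS KD1, which ranged from -0.17 without P replicate 1 to 0.022 without P replicate 3 (adjusted p = 0.82) and was -0.18 with limma on the deposited values, and 3 values of Txnip that missed the threshold (-0.074 in RBPMS KD1 with limma on the deposited normalised values, -0.058 and -0.059 in P against RBPMS KD1 with quantile normalization and limma). In MBNL KD, 64 of 70 member values moved by less than 1 SD of the replicates. The 6 that moved kept their direction, and on the deposited normalised values Arrdc4 was at -2.74 and Txnip at -1.84. Leaving out each library gave -3.22 to -2.96 for Arrdc4 there.

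With no fold threshold, 13103 genes, 5 members and 75 related genes were called in P, 9393, 4 and 61 in RBPMS KD1, 10833 genes and 64 related genes in MBNL KD, and 13423 genes and 4 members in P against RBPMS KD1. A minimum of 10 counts in all libraries left 2933 called genes in P, 3154 in P against RBPMS KD1 and 1 related gene in RBPMS KD1, where fewer genes were tested. With limma on the deposited values, 209 genes and 0 related genes were called in RBPMS KD1, and 784 and 3 in MBNL KD, where Arr3, Hk3 and Chmp4b were lost. Quantile normalization left 1 related gene in RBPMS KD1. Leaving out each library gave 1 to 4 related genes there (1 without D1 replicate 3, 4 without RBPMS KD1 replicate 3). Beyond the construction of each alternative, the cause was not tested.

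The replicate numbers do not pair the samples. With replicate number as a block, the replicate block fit called 4593, 730 and 1634 genes in P, RBPMS KD1 and MBNL KD and 4897 in P against RBPMS KD1, and changed no call of a member.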
